A study of Mus musculus with 20 samples.

Results

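Replication-dependent histone genes supply the core histones H2A, H2B, H3 and H4 and the linker histone H1 that package newly copied DNA. They were taken here as the genes of the deposited gene table whose GENCODE M21 symbol begins with Hist1h, Hist2h, Hist3h or Hist4h and that held at least 50 counts summed over the 20 libraries. Of 70 genes with such names, 60 met the threshold, out of 55471 genes in the table. They were chosen by this total count alone. Just inside the threshold were Hist1h1a with 117 counts, Hist2h2aa2 with 132 and Hist3h2ba with 352. Just outside it were Hist1h4m with 32, Hist1h2aj with 20 and Hist1h2bq with 11, and 5 further genes (Hist1h2ap, Hist1h2br, Hist1h2aa, Hist2h2aa1 and Hist2h3c1) were listed at 0 in every library. The 60 genes comprised 5 for H1, 15 for H2A, 17 for H2B, 11 for H3 and 12 for H4. Of these, 48 lay in the Hist1 cluster on chromosome 13, 8 in the Hist2 cluster on chromosome 3, 3 in the Hist3 cluster on chromosome 11 and 1, Hist4h4, on chromosome 6. GENCODE M21 annotates 58 of them as protein-coding and 2, Hist1h2al and Hist3h2bb-ps, as processed pseudogenes.

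The libraries were made from total RNA of SIMS, a cell line from mouse salivary gland, grown in DMEM with 10% FBS. The 5 groups of 4 libraries were wild-type cells, cells with a CRISPR/Cas9 knockout (KO) of Btbd7, which served as the negative control, and 3 clones with a knockout of Zcchc8, each a single clone. ZCCHC8 is the scaffold of the nuclear exosome targeting complex, which hands short-lived nuclear RNAs to the RNA exosome. The labels do not say whether the 4 libraries of a group came from separate cultures, so p-values measure the spread between these libraries only, and each Zcchc8 KO clone may carry features of its own. A second table held counts for the promoter upstream transcript (PROMPT) region of each gene in 19 of the libraries, without wild-type replicate 1.

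Most messenger RNAs end in a poly(A) tail, whereas those of replication-dependent histone genes end just after a short stem-loop. The stem-loop binding protein SLBP and the U7 small nuclear ribonucleoprotein guide the cut, and the messages are made in S phase and decay when DNA replication stops. Transcripts that run past this site, and the short RNAs that start upstream of active promoters and run the other way, are known substrates of the nuclear exosome. Total RNA libraries can hold histone messages with and without a poly(A) tail.

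A match to the 16-base histone stem-loop consensus was found in the GENCODE M21 transcripts of 38 of the 60 genes. The variants are shown because they separate H4 from the other types. Capitals mark the paired stem and lower case the 4-base loop, written 5′ to 3′ as DNA.
H1, H2A, H2B and H3 (22 genes): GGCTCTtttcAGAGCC
H4 (6 genes): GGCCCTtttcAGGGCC
H2B and H3 (5 genes): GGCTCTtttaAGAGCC
H4 (2 genes): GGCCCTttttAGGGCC
H4 (2 genes): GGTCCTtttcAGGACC
H2A (1 gene): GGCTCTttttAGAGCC
The 22 genes without a match had annotated transcripts in which these letters were absent. Several of these transcripts hold little beyond the coding sequence, such as Hist1h2bl (381 bases, 378 coding) and Hist1h4k (312 and 309). A stem-loop past such an annotated end could not be found. In 20 genes the annotated transcript ran more than 100 bases past the stem-loop, up to 4884 bases in Hist1h1d, and in 18 it ended within that distance.

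Promoter sequences from RefSeq (GRCm38.p6, 250 bases before to 50 after the start) were matched to 53 of the 60 genes. TATAAA was present on either strand in 32 of these promoters (60.4%), against 13.6% of 32851 promoters of all genes. CCAAT was present in 45 (84.9%, against 37.4% of all), in every H1, H2A, H2B and H3 promoter matched but in only 3 of 11 H4 promoters. The octamer ATTTGCAT was found in 12 (22.6%, against 1.74% of all), which were 6 of 14 H2A and 6 of 14 H2B promoters. The promoters of Hist1h1c, Hist1h3c and Hist1h2ab are shown because the region upstream of these genes gained counts in the Zcchc8 KO clones. Capitals mark the 3 motifs on either strand.
Hist1h1c (chr13:23738557-23738856, plus strand): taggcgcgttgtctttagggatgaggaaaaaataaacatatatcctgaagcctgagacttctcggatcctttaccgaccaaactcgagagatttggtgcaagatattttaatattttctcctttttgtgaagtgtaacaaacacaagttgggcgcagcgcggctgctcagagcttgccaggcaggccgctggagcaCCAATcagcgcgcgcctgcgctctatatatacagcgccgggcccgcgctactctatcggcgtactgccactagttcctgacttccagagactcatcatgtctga
Hist1h3c (chr13:23745472-23745771, minus strand): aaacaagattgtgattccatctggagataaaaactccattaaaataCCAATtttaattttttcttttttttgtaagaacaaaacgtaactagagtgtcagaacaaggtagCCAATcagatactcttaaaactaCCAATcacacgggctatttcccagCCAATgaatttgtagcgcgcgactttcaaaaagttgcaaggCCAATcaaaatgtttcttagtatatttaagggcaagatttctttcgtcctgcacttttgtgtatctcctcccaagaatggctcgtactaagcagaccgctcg
Hist1h2ab (chr13:23750838-23751137, plus strand): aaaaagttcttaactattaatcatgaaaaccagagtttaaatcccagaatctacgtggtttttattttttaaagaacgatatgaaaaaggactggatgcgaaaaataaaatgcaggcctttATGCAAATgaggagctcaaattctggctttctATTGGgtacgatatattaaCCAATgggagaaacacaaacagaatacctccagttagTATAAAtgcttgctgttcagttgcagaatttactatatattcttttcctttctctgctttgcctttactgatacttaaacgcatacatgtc

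A library held 6833258 to 17771804 counts in genes and, where given, 1569548 to 3966608 in PROMPT regions. Levels are given as CPM, the count scaled by library total and by the trimmed mean of M values (TMM). In wild-type replicate 1 only 14245 genes had a count, whereas replicates 2 to 4 had 17442 to 18791, and it was the lowest of the 4 wild-type libraries for 37 of the 60 histone genes. RNA of Btbd7 was at 95.8 to 103 CPM in Btbd7 KO and 192 to 209 in wild type. RNA of Zcchc8 was at 61.6 to 68.1 CPM in wild type, 55.2 to 65.6 in clone 1, 21.9 to 24.9 in clone 2 and 50.4 to 60.6 in clone 3, so the ranges of clone 1 and wild type overlapped. The 8 epithelial markers summed to 3625 to 5253 CPM in wild type and 3302 to 4152 in the clones. Of these markers 4 fell in Zcchc8 KO, where 19.9% of all genes did. In each single clone 1 was called higher, and 5, 4 and 4 were called lower in clones 1 to 3. Of all genes 14% to 16.7% were higher and 15.3% to 19.1% lower in single clones. In Btbd7 KO 2 markers were higher and 1 lower, against 7.73% and 8% of all genes. Of 6 acinar markers Muc19 and Smgc were at 0 in every library, whereas the water channel Aqp5 stood at 178 ± 9.55 CPM in wild type and was called lower in each clone and in Btbd7 KO (means 111 to 147). Of 4 myoepithelial markers Krt14 was at 319 ± 63.8 CPM in wild type and 412 in Btbd7 KO (higher). Its clone means were 187 to 287 (lower in Zcchc8 KO, but not called in clone 2). Myh11 went the other way at a low level, with 0.172 CPM in wild type and 0.427 to 0.887 in the clone means, and was not called. Acta2 and Cnn1 were near 0. Of 4 fibroblast markers Col1a1 rose (11.4 CPM in wild type, 10.7 to 24.3 in the clone means) and Col3a1 fell (3.15 to at most 0.894) in Zcchc8 KO. Of 3 immune markers Cd68 rose (5.55 CPM in wild type, 5.54 to 11.2 in the clone means), with Lyz2 near 0. The 3 endothelial markers summed to at most 1.15 CPM. The part of these markers in the histone values was not tested.

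Histone genes together took 4028 ± 452 CPM in wild type (SD, n = 4) and were carried mostly by H4 and H1. Fewer cells in S phase and less histone RNA per cell cannot be told apart in such bulk libraries. The wild-type libraries held 3418, 4207, 4484 and 4002 CPM, the lowest being replicate 1. H4 genes made up 44.4% of the wild-type sum, H1 genes 25.7%, H2B genes 17.4%, H2A genes 6.55% and H3 genes 5.98%. The Hist1 cluster held 93.6% of it. Hist1h4d, an H4 gene, gave 17.1% of the sum alone, and the linker histone genes Hist1h1e and Hist1h1c gave 12.5% and 6.03%. Summed levels were 4404 ± 270 CPM in Btbd7 KO, 3639 ± 187 in clone 1, 4290 ± 416 in clone 2 and 4069 ± 281 in clone 3 (each SD, n = 4). The clone 1 libraries, at 3462 to 3879 CPM, lay within the wild-type range, as did 3 of the 4 libraries of clone 2 and all 4 of clone 3. For clone 1 this rests on wild-type replicate 1 alone. All clone 1 libraries lay below wild-type replicates 2 to 4 and below the Btbd7 KO libraries, at 4052 to 4707 CPM. Clone 2 replicate 4 (3771) and clone 3 replicates 2 and 3 (3722 and 3976) did so too. These sums were not tested.

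Per kb of exon, the wild-type level ranged from 0.201 CPM per kb for Hist1h1a to 604 for Hist1h4d. Next after Hist1h4d came the H2A gene Hist1h2ak at 437 CPM per kb, the H2B gene Hist1h2bb at 405, and the H4 genes Hist1h4k at 404 and Hist1h4n at 359. The wild-type level of Hist1h4n was 154 ± 70.1 CPM (SD, n = 4), a spread that covers its distance to its neighbours in this order, whereas Hist1h4k was at 126 ± 5.22 CPM. Sequence shared between copies limits these ranks: 57% of the 50-base stretches of Hist1h2ak, 71.5% of those of Hist1h4k and 85.6% of those of Hist1h4n occur in another annotated gene. How the authors treated reads that match several copies is not given in the sources used here.

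Few histone genes changed in Zcchc8 KO. With the mean of the 3 clones set against wild type, 9 of the 60 genes were called higher and 6 lower (edgeR's quasi-likelihood test, p adjusted by Benjamini-Hochberg under 0.05). Over all 15297 genes tested, 16.2% were called higher and 19.9% lower, so both shares among histone genes (9 and 6 of 60) were at or under the background. The median log2 fold change of the 60 genes was 0.12, and that of all genes -0.01. The genes that rose came from H2A (4 of 15), H2B (2 of 17), H3 (2 of 11) and H4 (1 of 12). Those that fell came from H1 (1 of 5), H2A (1 of 15), H2B (2 of 17) and H4 (2 of 12). By cluster, 5 rose and 4 fell of 48 in Hist1, 3 rose and 2 fell of 8 in Hist2, and 1 rose of 3 in Hist3. Without wild-type replicate 1 the calls were 9 higher and 9 lower, and the median of the 60 genes was -0.01. The split moved with the setting: DESeq2 called 10 histone genes higher and 3 lower, and without TMM 11 were higher and 2 lower. With DESeq2 the median of the 60 genes was 0.16. That of all genes was 0.20, but over 55471 genes rather than the 15297 of the main fit. When counts were summed per cell line, with the 3 clones against wild type and Btbd7 KO as replicates, 5 of the 15 calls held (Hist2h2be, Hist2h3c2, Hist1h4i, Hist2h2aa2 and Hist3h2a) and 10 were lost.

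**Figure D1:**
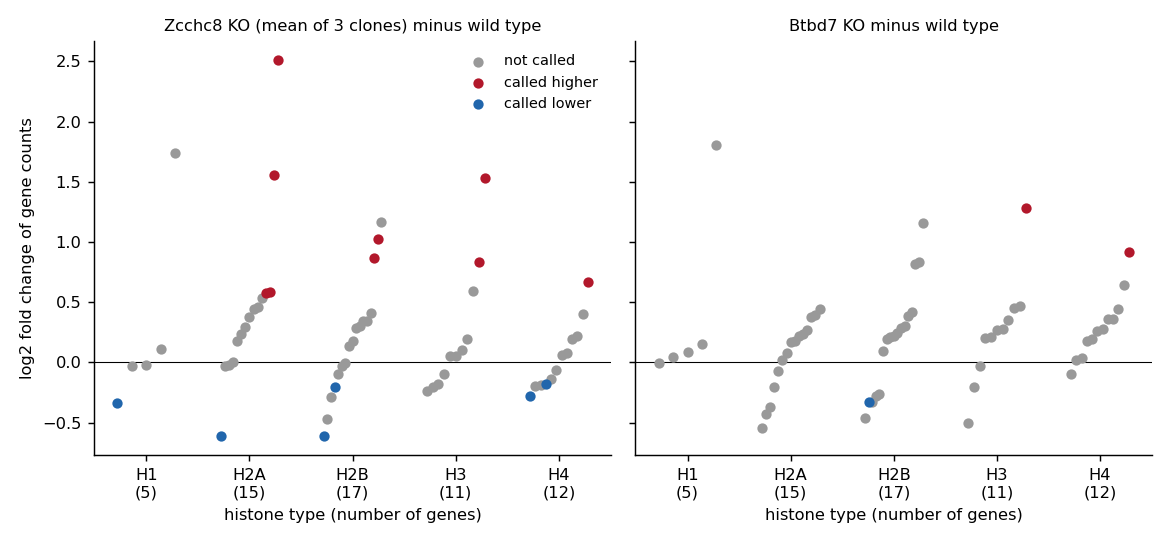
Log2 fold change of gene counts (y axis) for each of the 60 histone genes, by histone type (x axis), for Zcchc8 KO on the left and Btbd7 KO on the right. Each point is a gene, red where called higher, blue where called lower and grey where not called. Most points lie near 0 and the genes called in Zcchc8 KO run from -0.62 to 2.51.

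Among the genes that rose, Hist2h2be, an H2B variant gene studied in olfactory neurons, was higher in each clone library than in any control library. Its levels in wild-type replicates 1 to 4 were 9.82, 5.03, 6.06 and 6.28 CPM, and those in Btbd7 KO were 4.76, 6.04, 3.85 and 4.82. The 12 libraries of the clones ran from 11.1 to 16.3 CPM with a median of 13.6. Every clone library was above every wild-type library, and wild-type replicate 1 was the highest of the wild-type values. The log2 fold change was 1.03 (SE 0.15, adjusted p by edgeR = 9.9e-06). No 50-base stretch of Hist2h2be (ENSMUSG00000068854.7, chromosome 3, 96221119 to 96223738, GRCm38) occurs in another annotated gene.

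The H3 gene Hist2h3c2 (ENSMUSG00000081058.5, chromosome 3, 96238108 to 96239127) rose by a log2 fold change of 1.53 (SE 0.26, adjusted p by edgeR = 4.5e-05). Its wild-type libraries held 1.56, 2.66, 3.96 and 1.47 CPM, its Btbd7 KO libraries 2.47, 2.66, 1.49 and 4.22, and the clones 5.02 to 8.83 with a median of 7.13. The groups did not overlap, Btbd7 KO replicate 4 being the highest of the controls. Of its 50-base stretches, 63.5% occur in another gene, so reads of a copy could not be told apart.

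The H4 gene Hist1h4i (ENSMUSG00000060639.5, chromosome 13, 22040636 to 22041362) also rose. It stood at 86.1, 102, 118 and 112 CPM in wild type, at 114, 113, 123 and 127 in Btbd7 KO, and at 140 to 203 in the clones with a median of 165. All clone libraries lay above all wild-type and Btbd7 KO libraries, with a log2 fold change of 0.67 (SE 0.07, adjusted p by edgeR = 1.04e-07). The H2B gene Hist1h2bp (ENSMUSG00000069308.7, chromosome 13, 21787461 to 21789213) rose by 0.87 (SE 0.19, adjusted p by edgeR = 0.000687) from 3.71, 10.3, 7.18 and 6.10 CPM in wild type to 9.43 to 15.5 in the clones. Here wild-type replicate 2 overlapped the lowest clone libraries. These 4 genes, Hist2h2be, Hist2h3c2, Hist1h4i and Hist1h2bp, were also called higher in each clone by itself.

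**Figure D2:**
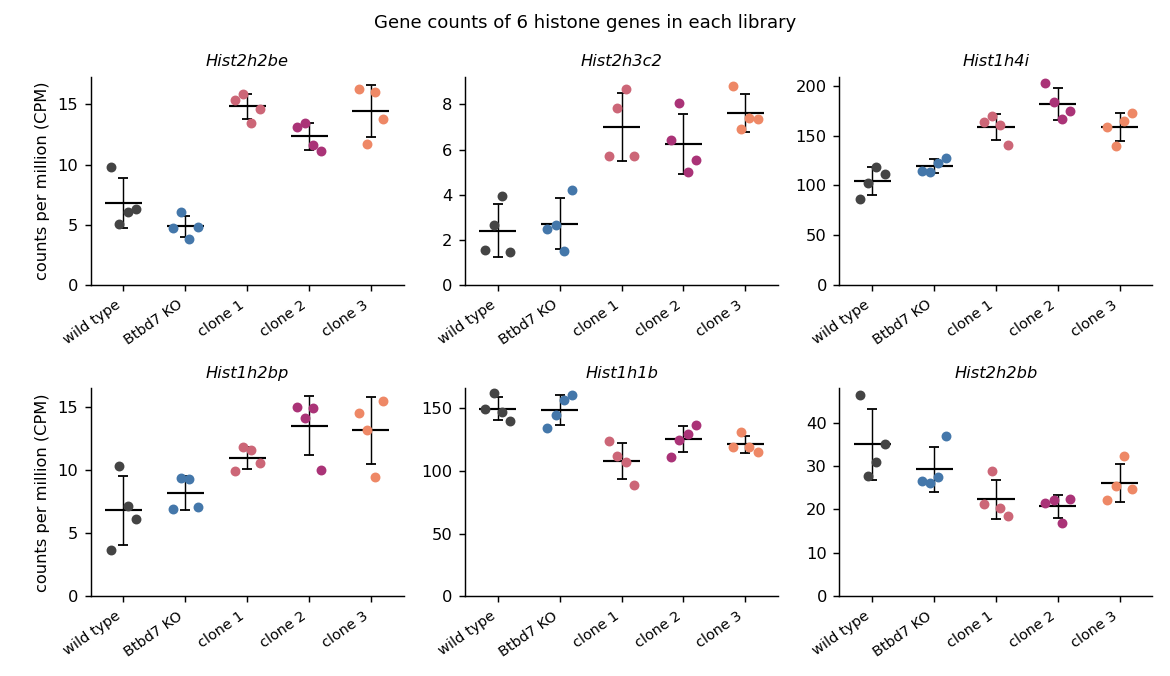
CPM in each library (y axis, from 0) for 6 histone genes, by group (x axis). Points are libraries, the horizontal line is the mean and the bar 1 SD (n = 4). Hist2h2be, Hist2h3c2 and Hist1h4i lie above all wild-type libraries in every clone, and Hist1h1b lies below them.

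Hist2h2aa2 and Hist3h2a, which had the highest fitted changes among the genes called, had very few counts. Hist2h2aa2, an H2A gene (ENSMUSG00000063954.7, chromosome 3, 96239749 to 96240276) whose every 50-base stretch occurs elsewhere, had counts of 0, 9, 0 and 0 in wild type, 5, 1, 1 and 3 in Btbd7 KO, and 1 to 19 in the clones. Its fitted log2 fold change was 2.51 (SE 0.76, adjusted p by edgeR = 0.0112). All wild-type counts came from replicate 2. In summed counts per summed library total the ratio of clones to wild type was 6.55 (95% interval 3.33 to 14.7, exact, for counting error only), and without replicate 2 it was at least 14.3-fold, against a floor of 3 counts over the wild-type group. Hist3h2a, another H2A gene (ENSMUSG00000078851.4, chromosome 11, 58954685 to 58956830), had 0, 0.926, 2.39 and 0.293 CPM in wild type and 1.71 to 4.56 in the clones, with a log2 fold change of 1.56 (SE 0.51, adjusted p by edgeR = 0.0175). Wild-type replicate 3 lay inside the range of the clones, and without replicate 3 the value was 2.63, and without replicate 4 the call was lost (log2 fold change 1.28, adjusted p by edgeR = 0.064). The gene overlaps Trim17 in the annotation, so their reads could mix.

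The other genes that rose were Hist1h3g, an H3 gene (log2 fold change 0.83), and the H2A genes Hist1h2an (0.58) and Hist1h2ac (0.58). Hist1h3g was at 4.55 to 8.33 CPM in wild type and 8.94 to 17.5 in the clones, which did not overlap, but Btbd7 KO reached 12.4, and with Btbd7 KO as the control its log2 fold change was 0.38 (adjusted p by edgeR = 0.103). The call of Hist1h2an was lost without wild-type replicate 1 (log2 fold change 0.34, adjusted p by edgeR = 0.066).

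Of the genes that fell, Hist1h1b, a linker histone gene (ENSMUSG00000058773.2, chromosome 13, 21779883 to 21780625), was lower in every clone library than in every wild-type library. It stood at 149, 162, 147 and 140 CPM in wild type, at 134, 145, 156 and 161 in Btbd7 KO, and at 88.8 to 137 in the clones with a median of 119. Btbd7 KO replicate 1 lay inside the range of the clones. The log2 fold change was -0.34 (SE 0.07, adjusted p by edgeR = 0.00022). No 50-base stretch of it is shared. The call was lost with cell lines as replicates (-0.35, adjusted p by edgeR = 0.122). The H2B gene Hist2h2bb (ENSMUSG00000105827.1, chromosome 3, 96269752 to 96270132) had 46.4, 27.6, 31.0 and 35.1 CPM in wild type and 16.8 to 32.4 in the clones, which overlapped. Its log2 fold change was -0.61 (SE 0.13, adjusted p by edgeR = 0.000419), but all of its 50-base stretches occur in another annotated gene and it overlaps Gm20628 and Gm42743. Both genes were called lower in each clone, against the same wild-type libraries, and the share of all genes with that pattern was not counted.

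Hist1h4d (ENSMUSG00000061482.7, chromosome 13, 23581598 to 23582735), the gene with the highest level per kb, was at 763, 567, 711 and 712 CPM in wild type and 471 to 740 in the clones, with overlap. It fell by 0.28 on the log2 scale (SE 0.08, adjusted p by edgeR = 0.00638), a call lost without TMM (-0.20, adjusted p = 0.0503) and with cell lines as replicates (-0.30, adjusted p = 0.124). The other calls were nearer the threshold. Hist1h2bb had 274, 176, 194 and 180 CPM in wild type and 160 to 212 in the clones, and its log2 fold change of -0.20 (adjusted p by edgeR = 0.0434) became -0.02 (adjusted p = 0.85) without wild-type replicate 1. Hist2h2ab, an H2A gene, had 13.9, 3.59, 5.68 and 5.86 CPM in wild type, and its log2 fold change of -0.62 (adjusted p by edgeR = 0.0498) became -0.07 (adjusted p = 0.82) without that library. In both genes replicate 1 was the highest wild-type value. These calls were lost without any 1 of 14 libraries for Hist1h2bb, 16 for Hist2h2ab and 12 for Hist1h4f. Hist1h4f fell by 0.18 (adjusted p by edgeR = 0.0405), a call lost without wild-type replicate 3 (-0.14, adjusted p = 0.16) or replicate 4 (-0.15, adjusted p = 0.14).

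The 3 clones were also compared singly with the same wild-type libraries. In clone 1, 5 histone genes were called higher and 9 lower, where 16.7% and 19.1% of all genes were. In clone 2, 11 were called higher and 4 lower, against 16.1% and 16.2% of all genes. In clone 3, 10 were called higher and 5 lower, against 14% and 15.3%. Median log2 fold changes over the 60 genes were -0.03, 0.22 and 0.18 in that order.

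The levels of 9 histone genes differed among the 3 clones (edgeR, 1 test over the clones), where 28.5% of all genes were called. The H3 gene Hist1h3d came first, at -0.51 in clone 1, 0.56 in clone 2 and 0.12 in clone 3 on the log2 scale (adjusted p by edgeR = 0.000158). Its clone 1 libraries held 19.3, 17.9, 17.5 and 18.2 CPM, its clone 2 libraries 53.6, 35.4, 37.2 and 28.1, and its clone 3 libraries 28.1, 21.1, 27.4 and 34.96. Clone 1 lay below both other clones without overlap. The H2B gene Hist1h2bc was at -0.65, 0.18 and -0.39 in clones 1 to 3 (adjusted p by edgeR = 0.000588). The linker gene Hist1h1e was at -0.15, 0.14 and -0.08 (adjusted p by edgeR = 0.00096), and its clone 2 libraries, at 540 to 584 CPM, lay above those of clones 1 and 3, at 434 to 501. Without wild-type replicate 1 the number of histone genes that differed between clones was 24. The share of all genes that differed in that fit is not given here, and the 28.5% belongs to the fit with all libraries.

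Btbd7 KO was compared with the same wild-type libraries as the clones were. In it, 2 histone genes were called higher and 1 lower, where 7.73% and 8% of all genes were. Hist4h4, the H4 gene outside the clusters, rose by a log2 fold change of 0.92 (SE 0.15, adjusted p by edgeR = 9.31e-05). It held 104, 85.5, 113 and 91.0 CPM in Btbd7 KO and 37.3, 56.7, 66.1 and 47.6 in wild type, without overlap. In the Zcchc8 KO clones it was not called (log2 fold change 0.22, adjusted p by edgeR = 0.174). The H3 gene Hist1h3h was at 10.4, 8.16, 9.93 and 6.17 CPM in Btbd7 KO and 0.195, 5.96, 5.16 and 2.93 in wild type, again without overlap, with a log2 fold change of 1.28 (SE 0.42, adjusted p by edgeR = 0.0372). That call was lost without Btbd7 KO replicate 1, 2 or 3 or wild-type replicate 4 (adjusted p by edgeR 0.066 to 0.101). Hist1h2bb fell by 0.33 on the log2 scale (SE 0.10, adjusted p by edgeR = 0.0188), a call lost without wild-type replicate 1 (-0.16, adjusted p by edgeR = 0.0763) or Btbd7 KO replicate 1 or 2 (adjusted p 0.0641 and 0.0732). The median log2 fold change of the 60 genes was 0.21, against 0.02 for all genes, and 0.06 without wild-type replicate 1.

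The Zcchc8 KO calls were spread over genes with and without a long annotated 3′ end. Of the 20 genes annotated past the stem-loop, 4 rose and 1 fell, with a median log2 fold change of 0.15. Of the 18 that end near it, 2 rose and 2 fell (median 0.12), and of the 22 without a match, 3 rose and 3 fell (median 0.12). Among 28 genes that share at least 50% of their 50-base stretches with another gene, 4 rose and 2 fell, and among the other 32, 5 rose and 4 fell. None of these splits was tested.

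Some PROMPT regions of histone genes rose strongly in Zcchc8 KO, while others held nearly the same count as a neighbouring histone gene. Of the 60 genes, 49 had a PROMPT region with enough counts to test, and the other 11 held 0 to 51 counts over the 19 libraries. The filter keeps a region that is high in a single group, so counts over the tested regions do not stand for all 60. With the mean of the clones against wild type, 14 were called higher and 2 lower (edgeR, adjusted p under 0.05). Over all 17617 PROMPT regions tested, 39.2% were called higher and 3.85% lower, so the share among histone genes (14 of 49) was under the background. The 49 include 14 regions, described below, with nearly the count of a neighbouring histone gene and 0 calls higher. All 14 calls higher lay among the other 35 regions. The median log2 fold change was 0.07 for the 49 regions and 0.43 for all regions. When the PROMPT table was scaled by its own counts, which sets the median of all regions to 0.02, 13 of 48 tested were called higher and 21 lower. Of all 16765 regions tested with that scaling, 5054 were called higher and 3665 lower. In single clones 13, 15 and 12 were called higher, against 38.7%, 35.1% and 36.4% of all regions in clones 1, 2 and 3. In the same order 7, 1 and 3 were called lower, against 4.22%, 3.51% and 2.55%. By type, 1 of 4 tested regions rose for H1, 3 of 11 for H2A, 1 of 13 for H2B, 5 of 10 for H3 and 4 of 11 for H4. By cluster, 11 of 40 rose in Hist1, 2 of 7 in Hist2, 0 of 1 in Hist3, and the region of Hist4h4.

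The region upstream of Hist1h1c, a linker histone gene (chromosome 13, 23738808 to 23740367, plus strand), went from nearly no counts to a clear signal. It had 0, 1 and 0 counts in wild-type replicates 2 to 4, 3, 0, 0 and 0 in Btbd7 KO, and 6 to 32 in each clone library. Counts were present in all 12 clone libraries, none of which overlapped the controls. In summed counts per library total the ratio of clones to wild type was 84.9 (95% interval 15.1 to 3367, exact, for counting error only), and the fitted log2 fold change was 5.77 (SE 0.87, adjusted p by edgeR = 8.71e-08). Without wild-type replicate 3, which held the single count, the ratio was at least 20.3-fold against a floor of 3 counts over the wild-type group, and the fitted value 7.36. The gene itself did not pass the test (log2 fold change 0.11, adjusted p by edgeR = 0.245). Leaving microRNA entries aside, no gene is annotated within 3 kb upstream, and its promoter, shown above, holds CCAAT.

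The region upstream of the H3 gene Hist1h3c (chromosome 13, 23744973 to 23745602, minus strand) held 0.636, 0.748 and 0.704 CPM in wild type and 1.27, 0.863, 0.869 and 0.845 in Btbd7 KO. In the clones it held 10.4 to 20.7 CPM with a median of 13.6. The clones lay far above both controls, with a log2 fold change of 4.31 (SE 0.24, adjusted p by edgeR = 6.36e-24). Hist1h3c lies head to head with the H2B gene Hist1h2bb, 1131 bases away, and Gm11336 is annotated between them. The region upstream of Hist1h2bb held 0.116, 0 and 0.235 CPM in wild type, 0.121, 0.332, 0.869 and 0.169 in Btbd7 KO, and 0.855 to 2.75 in the clones. It rose by 3.60 (SE 0.66, adjusted p by edgeR = 5.43e-06), although Btbd7 KO replicate 3 overlapped the lowest clone library, and its value became 4.45 without wild-type replicate 4.

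The region upstream of the H4 gene Hist1h4h held 0.579, 0.299 and 0.821 CPM in wild type, 0.543, 0.199, 0 and 0.169 in Btbd7 KO and 4.25 to 9.48 in the clones. The groups did not overlap and the log2 fold change was 3.72 (SE 0.31, adjusted p by edgeR = 3.98e-16). The long noncoding RNA gene Gm11335 is annotated there. The region upstream of the H2A gene Hist1h2ab went from 0.116, 0 and 0.235 CPM in wild type to 0.499 to 3.18 in the clones, a log2 fold change of 3.59 (SE 0.72, adjusted p by edgeR = 2.69e-05), and 1 Btbd7 KO library, replicate 3 at 0.744, reached into that range. Without wild-type replicate 4 the value was 4.45. The region upstream of Hist4h4, where Gm43969 is annotated, held 0.405, 0.224 and 0 CPM in wild type, 0.241, 0.332, 0.248 and 0.0845 in Btbd7 KO and 1.13 to 3.26 in the clones, which did not overlap (log2 fold change 3.26, adjusted p by edgeR = 8.97e-07, and 4.24 without wild-type replicate 2). The other regions that rose were those of Hist1h4c (2.32), Hist1h4j (2.16), Hist2h3c2 (2.04), Hist1h3e (1.80), Hist1h3i (1.51), Hist2h2aa2 (1.28), Hist1h2an (0.91) and Hist1h3g (0.79). The gene Hist1h2bp, which rose by 0.87, starts 242 bases upstream of Hist1h2an. It held 2441 counts against 3591 in the region of Hist1h2an, and its part in that rise was not tested. Of the 14 regions, 10 had every clone library above every wild-type library, and 12 were called in each clone. These 14 were picked by their call, and wild type had only 3 libraries here. The share of all PROMPT regions with either pattern was not counted, so neither number marks histone genes out. The value of Hist1h4j became 4.21 without wild-type replicate 4, which held 18 of its 21 wild-type counts, and that of Hist2h2aa2 became 1.96 without replicate 2. Hist1h4c lost its call without wild-type replicate 2 (log2 fold change 1.73, adjusted p by edgeR = 0.10), and Hist2h2aa2 without replicate 3 (1.00, adjusted p = 0.099) or replicate 4 (1.10, adjusted p = 0.070).

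**Figure D3:**
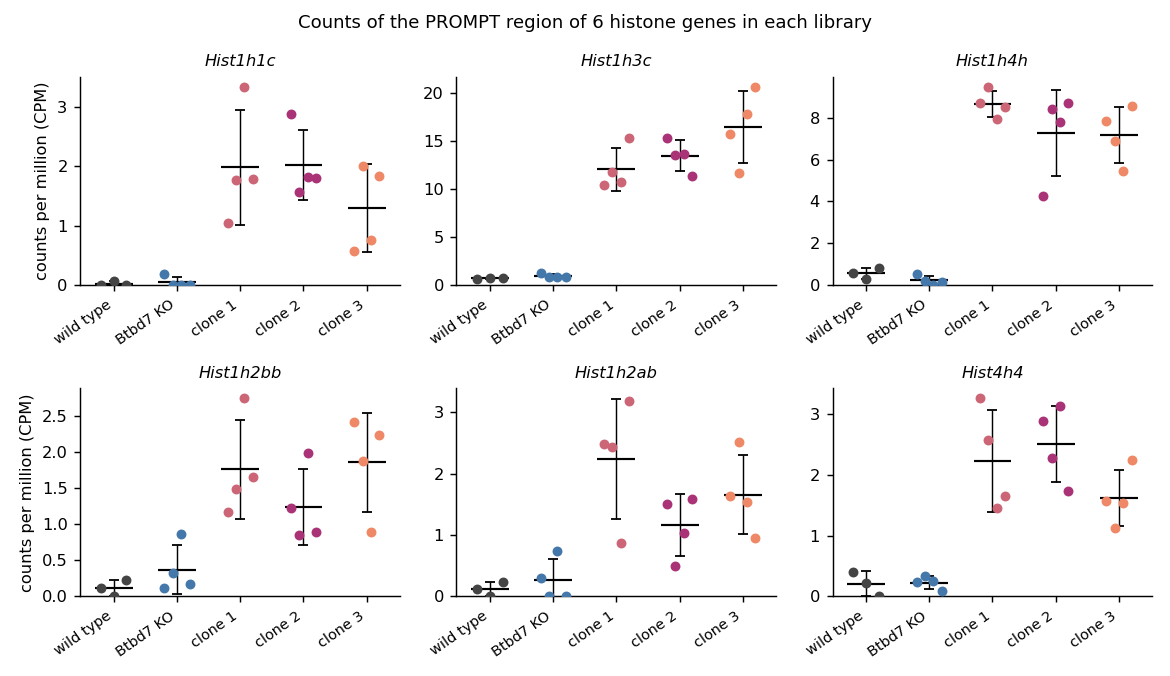
CPM of the PROMPT region in each library (y axis, from 0) for 6 histone genes, by group (x axis, 3 libraries in wild type and 4 in each other group). Points are libraries, the line is the mean and the bar 1 SD. The clones lie above wild type in each panel, and 1 Btbd7 KO library reaches the clones for Hist1h2bb and Hist1h2ab. For Hist1h3c the clones lie at 10.4 to 20.7 CPM against 0.636 to 0.748 in wild type.

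The largest PROMPT counts of histone genes matched the count of a histone gene next door. The extent and strand of a PROMPT region are not given in the sources used here. Among histone genes with at least 50 counts lying within 3 kb upstream, 14 PROMPT regions had one with a count within 20% of their own, 6 on the same strand and 8 on the opposite strand. These 14 regions held 79.9% of all PROMPT counts of the 60 genes. The region of Hist1h4k held 40036 counts over 19 libraries, 103% of the 38754 counts of Hist1h2ak, which lies 2929 bases upstream on the same strand. The region of Hist1h2af held 102% of the counts of Hist1h4h, that of Hist1h4a 101% of those of Hist1h3a, and those of Hist1h2bh and Hist1h3f 105% and 102% of each other's gene. Library by library, the percentage for Hist1h4a ran from 100 to 103 and that for Hist1h2af from 101 to 104. Other pairs were far apart: the region of Hist1h2ai held 14 counts although Hist1h2bl, with 10929, starts 278 bases upstream.

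**Figure D4:**
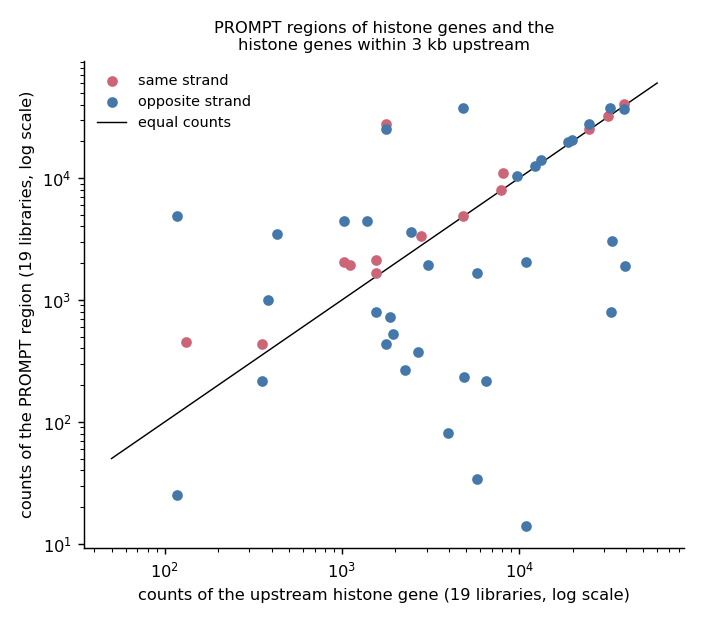
Counts of a histone gene's PROMPT region (y axis, log scale) against counts of a histone gene within 3 kb upstream (x axis, log scale), summed over 19 libraries. Each point is a pair, red where both genes are on the same strand and blue where they are on opposite strands, and the line marks equal counts. At the upper right 14 pairs lie within 20% of the line.

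None of the 14 regions with such near-equal counts was called higher in Zcchc8 KO and 1 was called lower, with log2 fold changes from -0.21 to 0.24. The other 35 tested regions held all 14 calls higher, with a median of 0.28. Of all PROMPT regions tested 39.2% were called higher, with a median of 0.43. By annotation within 3 kb upstream, 5 of 35 regions rose where a histone gene with counts lay there (median 0.02), 3 of 7 where only another gene did (median 0.22) and 6 of 7 where no gene other than microRNA entries did (median 2.16). The exception in the last set was Hist1h4d, at -0.15 (adjusted p by edgeR = 0.198). In the same order these sets held 40, 8 and 9 genes in all. The filter can keep a region through high clone libraries alone, so these shares and medians cover tested regions only. These groups follow the annotation and the counts and were not tested against each other.

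**Figure D5:**
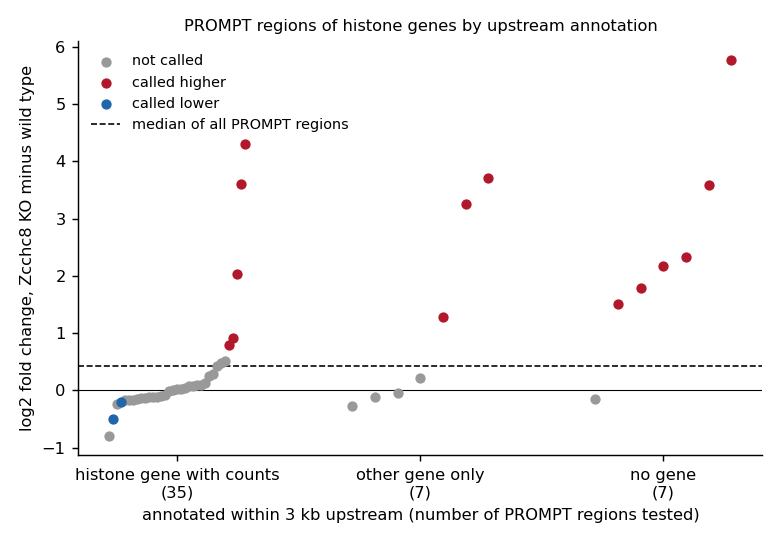
Log2 fold change of PROMPT regions of histone genes in Zcchc8 KO (y axis) by what GENCODE M21 annotates within 3 kb upstream (x axis). Points are regions, red where called higher, blue where called lower and grey where not called, and the dashed line is the median of all PROMPT regions, 0.43. In the set with no gene upstream, which holds 9 genes, 6 of the 7 regions tested were called higher.

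The 2 regions that fell were those of Hist2h2bb and Hist1h2ak. The region of Hist2h2bb held 64.5, 62.0 and 50.1 CPM in wild type and 32.6 to 56.0 in the clones, with overlap, and fell by 0.50 on the log2 scale (SE 0.09, adjusted p by edgeR = 9.18e-06). The H3 gene Hist2h3b lies there, and the gene Hist2h2bb fell too. The region of Hist1h2ak held 99.5, 95.3 and 84.9 CPM in wild type and 65.5 to 96.4 in the clones, also with overlap, and fell by 0.21 (SE 0.08, adjusted p by edgeR = 0.0254). It held 104% of the counts of the neighbouring Hist1h2bn, and its call was lost without wild-type replicate 2 (-0.16, adjusted p by edgeR = 0.17) or replicate 3 (-0.18, adjusted p = 0.11). It was also lost without clone 1 replicate 4 (adjusted p = 0.058) or clone 3 replicate 1 (0.0555), and under DESeq2, no filter, no TMM, TMM over filtered genes and cell lines as replicates (adjusted p 0.0531 to 0.192).

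The clones differed for the PROMPT regions of 3 histone genes, where 10.9% of all regions were called: Hist1h4a, Hist1h1a and Hist2h2bb. In Btbd7 KO 1 region was called higher and 1 lower, where 1.23% and 1.75% of all regions were. The region of the pseudogene Hist3h2bb-ps held 19.9, 19.8, 23.6 and 24.4 CPM in Btbd7 KO and 14.7, 11.3 and 17.8 in wild type, without overlap (log2 fold change 0.58, SE 0.14, adjusted p by edgeR = 0.0139). That of Hist1h2ac held 0, 0, 0.248 and 0 CPM in Btbd7 KO and 0.694, 0.374 and 0.880 in wild type (log2 fold change -3.67, SE 1.09, adjusted p by edgeR = 0.0467). Both calls depended on single libraries, the first on wild-type replicate 3 (0.43, adjusted p = 0.13) or Btbd7 KO replicate 4 (0.52, adjusted p = 0.058), and the second on any of 9 libraries (adjusted p by edgeR 0.0505 to 0.134), while without Btbd7 KO replicate 3 it became -6.01.

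Genes that make, process and replace histone messages were counted by list, beside the 16.2% of all genes called higher and 19.9% called lower in Zcchc8 KO. Of 10 tested genes of the 3′ cleavage complex, 0 rose and 3 fell: the endonuclease subunits Cpsf3 (log2 fold change -0.34) and Cpsf2 (-0.30) and the cleavage factor Cstf2 (-0.26). Cpsf2 and Cpsf3 were called lower in each clone, whereas Cstf2 was at 93.2 CPM in clone 1, 131 in clone 2, 118 in clone 3 and 136 ± 13.4 in wild type, and was not called in clone 2. Cpsf2 and Cpsf3 rose in Btbd7 KO, by 0.45 and 0.36. Slbp, which binds the stem-loop, stood at 74.6 ± 7.90 CPM in wild type and was not called in Zcchc8 KO (log2 fold change 0.01, adjusted p by edgeR = 0.89), but fell in Btbd7 KO (-0.43, adjusted p by edgeR = 0.000295). The U7 components Lsm10, Lsm11 and Zfp473 were at 0.20, -0.16 and 0.15 in Zcchc8 KO and were not called. Rnu7, the U7 RNA gene, was listed at 0 in every library.

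Of 6 genes for histone gene transcription 3 fell in Zcchc8 KO, among them Npat, the coactivator of histone promoters (-0.25, adjusted p by edgeR = 0.00823). Npat also fell in Btbd7 KO (-0.28, adjusted p by edgeR = 0.0324). It was at 191 ± 39.2 CPM in wild type, 155 to 166 in the clone means and 157 in Btbd7 KO. Outside wild type its SD was 5.46 to 12.2, and both comparisons use the same widely spread wild-type libraries. Of 4 cap-binding genes Srrt, which encodes ARS2 and links the cap to RNA processing and decay, rose (0.49, SE 0.05, adjusted p by edgeR = 7.8e-09) and Ncbp1 fell (-0.17). Srrt was at 173 to 191 CPM in wild type, 183 to 206 in Btbd7 KO and 233 to 292 in the clones, which lay above both. In the list for translation and decay of histone messages 1 of 7 genes fell, Ctif (-0.35), and among 9 chaperones 1 fell, Rbbp7 (-0.42).

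Replacement histones, which are made outside S phase as well as in it, had 2 genes higher and 3 lower of 10 tested. H2afj rose (0.62, with 25.4 to 28.8 CPM in the clone means and 17.6 in wild type) and H2afz fell (-0.34, with 44.0 to 51.8 against 59.9). The other calls of the mean differed among the clones (edgeR). H2afy2 (-1.51) was at 2.79, 7.18 and 0.62 CPM in clones 1 to 3 and 6.75 in wild type, so clone 2 was not lower. H3f3b (-0.15) was at 567, 630 and 502 CPM against 625, and H3f3a (0.19) at 45.4, 49.0 and 64.6 against 45.9, where clone 3 alone was called. Of 24 S-phase genes 6 rose (16.2% of all genes did), such as the replication clamp Pcna (0.34; 260, 180 and 184 CPM in clones 1 to 3 and 162 ± 25.0 in wild type, called in clone 1 alone), and 2 fell (19.9% of all genes did), among them the cyclin Ccne2 (-0.42). Of 15 genes of G2 and M phase 0 rose and 10 fell, against the same 16.2% and 19.9%, such as the cyclins Ccna2 (-0.49) and Ccnb1 (-0.39). The S-phase list had a median of 0.12 and the G2 and M list one of -0.19, against -0.01 for all genes. In Btbd7 KO, 3 S-phase genes rose and 5 fell, and 2 G2 and M genes rose and 2 fell, where 7.73% and 8% of all genes did. The part of the cell cycle in the histone values was not tested.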

How the data were processed

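Per the labels' protocols, total RNA came from TRIzol extraction followed by spin columns, and the kit was TruSeq Stranded Total RNA. The submitters' processing notes name FastQC and STAR 2.7.3a. The genome build, the counting tool and its strand setting, and how far PROMPT regions reach, are not given in the sources used here. The deposited tables hold raw counts by the authors per gene and per PROMPT region.

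Genes were named from GENCODE M21. edgeR 4.0.16 (R 4.3.3) fitted 1 quasi-likelihood model over all 5 groups to every gene past filterByExpr, with TMM factors over all genes. PROMPT regions used the library sizes and factors of the gene table. P-values were adjusted by Benjamini-Hochberg over all features at 0.05. Members described by library were the 5 highest per kb, the 5 most raised and 5 most lowered calls in Zcchc8 KO (5 and 3 for PROMPT regions), up to 3 each way in Btbd7 KO and the 3 with the lowest p between clones. Other called members are named by value. The members and gene lists were chosen with earlier results of these data known. Shared sequence was counted as 50-base stretches of annotated exons found in another gene. Stem-loops were searched in annotated transcripts and motifs in RefSeq promoters (GRCm38.p6). DESeq2 1.42.0, other filters, scalings and sample sets were tried as alternatives, and the fit was tested on simulated data. 4 libraries per group limit the precision, and no replicate pair looked like 1 library deposited again: chi-square over genes, divided by its degrees of freedom, was 2.89 to 78.6. The values of 1 gene of the S-phase list are not reported here.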

Additional observations from a re-analysis of the deposited data

Results flagged for a closer look

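In 131 groups of 4 libraries tested for a library far from the others, 9 had one, where chance gives about 1 in 20. For genes, Hist1h2bp had a low clone 2 library at 10.02 CPM (others 14.1 to 14.9), Hist1h4k a high clone 1 library at 108.9 (others 83.7 to 87.9), and Hist2h2bb a high Btbd7 KO library at 36.91 (others 26.0 to 27.5). Hist2h2aa2 had 1 wild-type library at 0.5207 CPM with the others at 0, and a low clone 2 library at 0.6411 (others 1.08 to 1.17). For PROMPT regions, 1 Btbd7 KO library stood above the others for Hist1h1c (0.1808 CPM, others 0), Hist1h2ac (0.2481, others 0) and Hist1h3c (1.266, others 0.845 to 0.869), and 1 clone 3 library did for Hist1h2ak (96.41, others 76.7 to 79.3).

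Levels differed among the 3 Zcchc8 KO clones in 9 genes, by edgeR's test of the difference. Each is a single clone, so the knockout and other features of a clone cannot be told apart here. The adjusted p-values by edgeR were 0.0001584 for Hist1h3d, 0.0005875 for Hist1h2bc, 0.0009602 for Hist1h1e, 0.00171 for Hist1h4k, 0.002615 for Hist2h4, 0.002743 for Hist1h3a, 0.02841 for Hist1h4f, 0.03637 for Hist4h4 and 0.04649 for Hist1h1c. Hist1h4k was at -0.47, -0.03 and -0.08 in clones 1 to 3 on the log2 scale, Hist2h4 at -0.37, -0.39 and 0.18, and Hist4h4 at -0.06, 0.26 and 0.47. Among PROMPT regions they were 0.001067 for Hist1h4a (-0.32, 0.21 and -0.38), 0.005275 for Hist1h1a (-0.34, 0.03 and -0.04) and 0.03836 for Hist2h2bb (-0.57, -0.64 and -0.28).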

How the results depend on the processing

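For genes in Zcchc8 KO, the 9 called higher became 17 with no filter and 5 with cell lines as replicates. The 6 called lower became 3 with DESeq2, with TMM over filtered genes (added after the data were seen) or with only the groups compared, 2 with no TMM, 13 with Btbd7 KO as control and 0 with cell lines as replicates. Leaving out 1 library gave 8 to 13 higher and 3 to 9 lower. For Btbd7 KO, 2 higher became 14 with no filter and 1 with only the groups compared (1 to 10 with 1 library left out), and 1 lower became 0 with only the groups compared (0 to 2 with 1 left out). The 9 genes that differed between clones became 19 with DESeq2, 20 with no filter, 26 with only the clones compared, and 6 to 24 with 1 library left out. For PROMPT regions in Zcchc8 KO, 14 higher stayed between 13 and 18 under every setting run. The 2 lower became 1 with DESeq2, no filter, no TMM or TMM over filtered genes, 8 with Btbd7 KO as control, 21 when scaled within the PROMPT table, and 1 to 2 with 1 library left out. Of all regions, 1057 of 17617 were lower with Btbd7 KO as control and 3665 of 16765 when scaled within the table. In Btbd7 KO 1 region was higher throughout except for 0 to 1 with 1 library left out, and 1 lower became 0 with no filter, only the groups compared, the replicate block or scaling within the table, and 0 to 1 with 1 left out. The 3 regions that differed between clones became 5 with no TMM, 9 when scaled within the table, and 2 to 8 with 1 library left out. The shares of all genes and of all regions that differed between clones under these settings are not given here. Hist1h2bb, at -0.20 in genes, turned to 0.13 with Btbd7 KO as control. Of the other recomputed calls of named members, 886 held and 107 were lost. The median of all genes was -0.01 in the main fit, 0.20 with DESeq2 and 0.13 with no filter. These medians cover different sets, of 15297, 55471 and 30034 genes. Scaling within the table moved the median of PROMPT regions from 0.43 to 0.02. Of all called genes 44.8% were higher, and 55.9% with DESeq2, 61.7% with no TMM and 84.9% with cell lines as replicates. For PROMPT regions it was 91.1%, and 58.0% within the table. Same-numbered libraries of different groups correlated at -0.07 to 0.10 over 40 pairs, with 1 over 0.1. These values gave little sign of pairing by number, but they cannot show that such libraries shared no preparation step. With the replicate block, 9 genes were called higher and 4 lower in Zcchc8 KO. The cause of these shifts was not tested. Sequence shared between copies and low PROMPT counts limit the precision of single members.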
